A study of Mus musculus with 20 samples.

Results

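Basal mammary epithelial cells without GFP, the reporter of transgene expression, were sorted from mice with a mutant PIK3CA transgene and compared with basal cells of control mice. The comparison used 6 of the 20 arrays of the series, chosen by their titles: 3 arrays of GFP-negative basal cells from K8-creERT2/PIK3CA H1047R mice and 3 arrays of GFP-negative basal cells from K8-creERT2 control mice. Both groups were of mixed FVB/CD-1 background, carried the tamoxifen-inducible Cre under keratin 8 control, and were sampled 4 weeks after tamoxifen. Each array held amplified RNA of 2000 cells from the pooled glands of 2 to 3 estrus-synchronized mice, and the replicates were separately sorted pools. The gate was CD45-negative, CD24 low and Sca1-negative. In the mutants GFP marked transgene-expressing cells, so the GFP-negative fraction was labelled as non-expressing epithelium of the mutant glands. Keratin 8 is made mainly by luminal cells, so Cre acts in a limited part of the gland, and the sort cannot show whether a GFP-negative cell had never recombined the transgene. A further 3 arrays of GFP-positive basal cells from the same mutant genotype, at the same time after tamoxifen, are given beside them.

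The mammary basal layer consists of contractile myoepithelial cells and includes cells with progenitor activity; it lines the luminal cells and rests on the basement membrane. PIK3CA encodes the catalytic subunit p110α of PI3K, which signals to AKT and mTOR, and its H1047R form is an activating change found in breast tumours. Cells beside mutant cells are exposed to their secreted factors, matrix and contacts. The GFP-negative fraction addresses what differs in basal cells of mutant glands that lack the GFP mark of transgene expression.

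Basal markers read far above the array medians on all 6 arrays, at similar levels in both groups. Luminal arrays were not set beside them. Krt14, a basal keratin, read 10.49, 10.39 and 10.40 on the log2 scale in GFP-negative mutant cells, against 10.39, 10.54 and 10.54 in control cells. Acta2, smooth muscle actin of myoepithelial cells, read 11.42, 11.09 and 11.41 in GFP-negative mutant cells, against 11.41, 11.31 and 11.44 in control cells. Ptprc, which encodes CD45, stayed between 3.48 and 3.79 in GFP-negative mutant cells and between 3.49 and 3.58 in control cells, near the array medians of 3.69 to 3.75. Krt8 was high in a basal gate, at 10.63, 9.74 and 10.59 in GFP-negative mutant cells and 10.14, 10.84 and 10.04 in control cells, and the mean of 13 luminal genes was 7.09, 7.24 and 7.16 in GFP-negative mutant cells, against 6.95, 7.18 and 6.47 in control cells. Luminal transcripts were thus present in both groups at overlapping levels. Pik3ca gave a difference of -0.16 (95% interval -0.72 to 0.40), and whether its mouse probe set reads the transgene is not known. In these bulk samples fewer cells of a type and less RNA per cell cannot be told apart. The correlations between arrays across genes were 0.961 to 0.965 within controls, 0.962 between GFP-negative replicates 1 and 3, and 0.952 between GFP-negative replicate 2 and each of these. Replicate 2 therefore stood somewhat apart from its own group, and several results that rest on it are given with and without it.

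Few genes were called between GFP-negative basal cells of mutant glands and control basal cells. With limma, 32 of 19937 genes passed a Benjamini-Hochberg adjusted p of 0.05, which is 0.161% of the genes tested. Of these, 19 were higher in GFP-negative mutant cells (0.0953%) and 13 were lower (0.0652%). The largest rises were Piezo1, a mechanically gated cation channel, Me1, the cytosolic malic enzyme, Thy1, a surface glycoprotein, and Krt15, a keratin of basal epithelial layers. The largest falls were Zfp296, a zinc finger protein gene, Arsb, which encodes a lysosomal sulfatase, and Serpinb11, a member of the serpin family. By comparison, the same test called 648 genes (3.25%) between GFP-positive and GFP-negative basal cells of the mutants, and 843 genes (4.23%) between GFP-positive mutant and control basal cells. The plot of called genes shows all 3 groups.

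**Figure D1:**
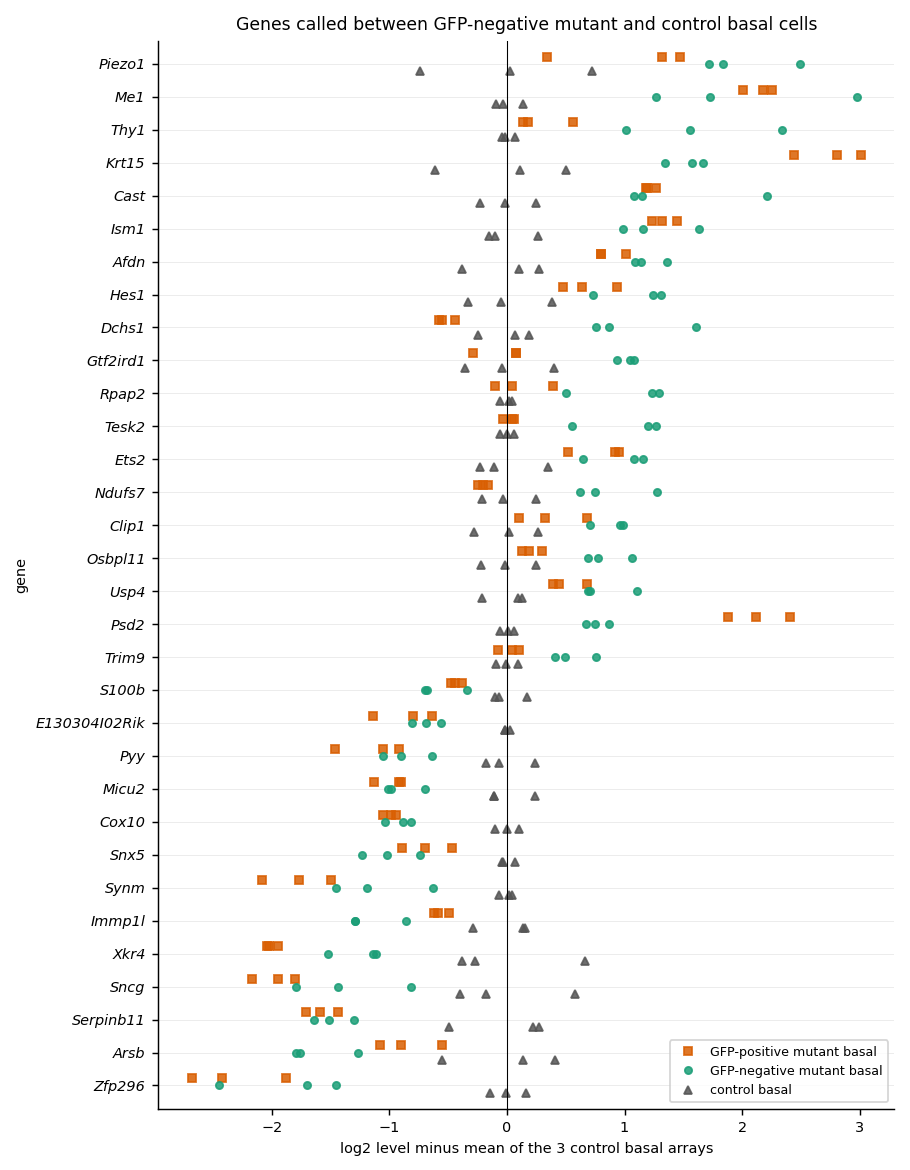
Log2 level of the 32 called genes on each array minus the mean of the 3 control basal arrays, with 1 point per array for GFP-positive mutant basal (squares), GFP-negative mutant basal (circles) and control basal cells (triangles). For every gene shown, the 3 GFP-negative points lie on 1 side of the 3 control points; the GFP-positive points lie beside the GFP-negative ones for some genes (Me1, Ism1, Serpinb11) and beside the controls for others (Thy1, Gtf2ird1, Tesk2).

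The calls rest on a spread estimated from all 7 sorted groups. With only the 6 compared arrays in the fit, limma called 0 genes (1362 had an unadjusted p under 0.05), and with the 9 basal arrays it called 0 (1335 unadjusted), against 1932 unadjusted in the fit of 20 arrays. In the fit of 6 arrays the 32 genes had adjusted p between 0.545 and 0.632. All 32 had an unadjusted p under 0.05 there. Their differences are the same in both fits by construction, and the same arrays chose the genes, so this is not separate support. Leaving out GFP-negative replicate 2 gave 25 calls (21 higher and 4 lower, 13 of them among the 32), and leaving out GFP-negative replicate 3 gave 63. The calls of 10 genes held in each of the 6 fits that left out 1 array: Thy1, Cast, Dchs1, Gtf2ird1, Tesk2 and Psd2 (higher) and Zfp296, Serpinb11, Xkr4 and Snx5 (lower). The other 22 lost their call in at least 1 of these fits. Their sign could not change there, since the arrays of both groups did not overlap. Without GFP-negative replicate 2 the adjusted p by limma was 0.0625 for Cox10, 0.11 for Rpap2, 0.12 for Osbpl11, 0.129 for Micu2 and 0.144 for S100b.

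The precision sets how much could have been missed. The 95% interval of a gene's difference had a median half-width of 0.33 on the log2 scale, and for 86.2% of the genes the whole interval lay between -1 and 1. In a fit of only the genes above the median intensity the median half-width was 0.51, so the differences of brighter genes were bounded less tightly. Differences above 1 in size were measured for 255 genes, of which 19 were called, and differences above 2 for 12 genes, of which only Piezo1 was called. A separation of the arrays alone was common: all 3 GFP-negative arrays were above all 3 controls for 976 genes (4.9%) and below them for 1749 genes (8.77%).

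**Figure D2:**
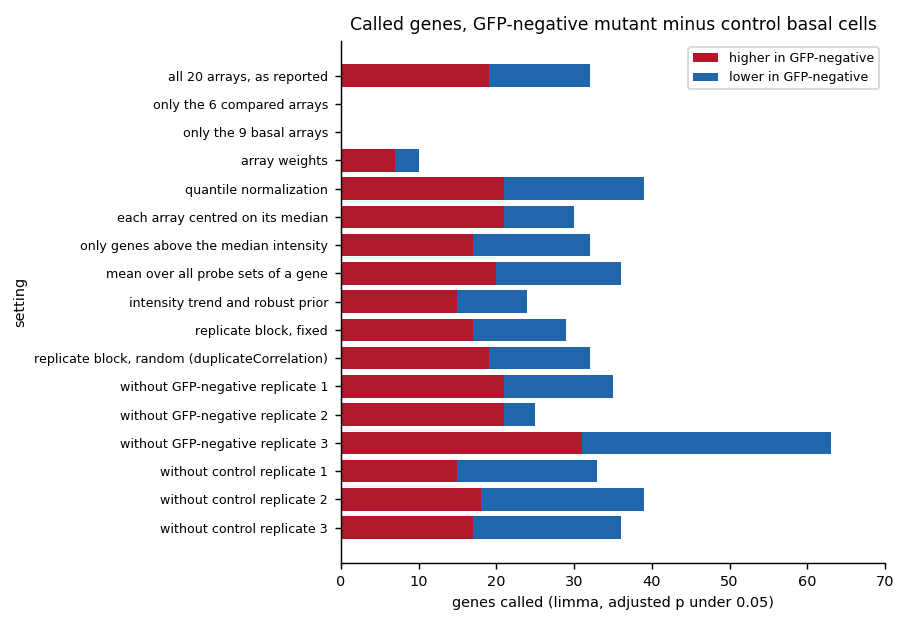
Number of genes called by limma (horizontal axis, starting at 0) for GFP-negative mutant minus control basal cells in each fit, split into genes higher and lower in GFP-negative cells. The 20-array fit called 32; the fits of 6 and 9 arrays called 0, and leaving out 1 array gave 25 to 63.

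Genes of the cell surface and of contact between cells were among the rises; the grouping by role that follows was made after the called genes were seen. Piezo1 read 7.44, 7.56 and 8.21 in GFP-negative mutant cells, against 4.98, 6.44 and 5.75 in control cells. All GFP-negative arrays were above all controls, but the controls spanned more than 1 log2 unit. The difference was 2.01 ± 0.38 (SE, adjusted p = 0.0470 by limma), and without 1 array at a time the adjusted p ran from 0.0248 to 0.124, the highest being without control replicate 1. With the mean over all its probe sets Piezo1 was 1.23 higher and not called (adjusted p = 0.138). Thy1, known as CD90, read 4.55, 5.88 and 5.10 in GFP-negative mutant cells, against 3.50, 3.52 and 3.61 in control cells, a difference of 1.63 ± 0.22 (adjusted p = 0.0133). The control level lay near the array medians, and all GFP-negative arrays were above it. It remained called without any 1 array (adjusted p 0.000476 to 0.0288). Afdn, which encodes the adherens junction protein afadin, was 1.20 ± 0.19 higher (adjusted p = 0.0222), and its call was lost without GFP-negative replicate 2 (adjusted p = 0.0652) and without control replicate 3. Dchs1, a protocadherin that binds Fat4, read 5.74, 4.89 and 5.0 in GFP-negative mutant cells and 4.32, 3.88 and 4.20 in control cells, and rose by 1.07 ± 0.16 (adjusted p = 0.0213).

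Filament and cytoskeleton genes moved in both directions. Krt15 read 8.84, 8.61 and 8.94 in GFP-negative mutant cells, against 6.66, 7.38 and 7.77 in control cells, a rise of 1.52 ± 0.28 (adjusted p = 0.0401). The GFP-negative arrays were close together and the controls were spread over about 1 log2 unit; the call held in 1 of the 6 fits without 1 array (adjusted p up to 0.108, without control replicate 1). Synm, which encodes the intermediate filament protein synemin, read 5.22, 4.96 and 5.78 in GFP-negative mutant cells and 6.34, 6.45 and 6.43 in control cells, and fell by 1.08 on the log2 scale (adjusted p = 0.0306, and up to 0.0809 without GFP-negative replicate 2). Clip1, a microtubule plus-end linker, and Tesk2, a kinase that acts on cofilin, were higher by 0.88 ± 0.16 and 1.0 ± 0.15. Cast, which encodes the calpain inhibitor calpastatin, read 7.53, 8.59 and 7.46 in GFP-negative mutant cells, against 6.63, 6.36 and 6.15 in control cells. Its rise of 1.48 ± 0.23 (adjusted p = 0.0213) was 1.12 without GFP-negative replicate 2, where it was highest, and remained called there (adjusted p = 0.00874; range over the 6 fits 0.00839 to 0.0489).

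Regulators of transcription also appeared on both sides. Hes1, a repressor downstream of Notch receptors, read 7.87, 7.80 and 7.29 in GFP-negative mutant cells, against 6.51, 6.23 and 6.94 in control cells. The lowest GFP-negative array was above the highest control by less than the range of either group, and the rise of 1.09 ± 0.18 (adjusted p = 0.0302) lost its call in 4 of the 6 fits without 1 array (adjusted p up to 0.0838, without GFP-negative replicate 1). Ets2, an ETS-family factor, was 0.96 ± 0.16 higher (adjusted p = 0.0308), and Gtf2ird1, a factor encoded in the region deleted in Williams syndrome in humans, was 1.02 ± 0.16 higher (adjusted p = 0.0222). Rpap2, a phosphatase of the RNA polymerase II tail, was 1.01 ± 0.18 higher. Zfp296 read 6.20, 5.45 and 6.45 in GFP-negative mutant cells, against 7.89, 8.06 and 7.76 in control cells. The groups were separated by more than 1 log2 unit, and the difference of -1.87 (adjusted p = 0.0213) stayed between -2.08 and -1.57 when 1 array was left out.

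Metabolic and mitochondrial genes included the second largest rise. Me1, whose enzyme makes NADPH from malate for lipid synthesis, read 5.92, 7.63 and 6.38 in GFP-negative mutant cells, against 4.79, 4.56 and 4.62 in control cells. The controls lay close together and all GFP-negative arrays were more than 1 log2 unit above them. The rise was 1.99 ± 0.32 (adjusted p = 0.0252); it was 1.49 without GFP-negative replicate 2 (adjusted p = 0.0258), and the call was lost without control replicate 2 (adjusted p = 0.0574) or control replicate 3. Ndufs7, a subunit of respiratory complex I, was 0.88 ± 0.16 higher (adjusted p = 0.0399). Cox10, which acts in heme A synthesis for cytochrome oxidase, read 4.97, 4.81 and 5.03 in GFP-negative mutant cells and 5.75, 5.85 and 5.95 in control cells, and fell by 0.91 on the log2 scale (adjusted p = 0.0222). Micu2, a regulator of the mitochondrial calcium uniporter, fell by 0.90, and Immp1l, a peptidase of the inner membrane, fell by 1.15.

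Me1 is a known target of NRF2, the factor of the oxidative stress response, in mouse liver and other tissues, and NRF2 binds antioxidant response elements with the core TGACNNNGC. The Me1 promoter is shown because it is the largest called rise with a promoter window in which this core was found. RefSeq (GRCm38.p6) gives Me1 on the minus strand of chromosome 9, with 2 start sites. The first 280 bases of the 300-base window of the first start site, from 250 before to 30 after the start, lie at chr9:86695885-86696164, and are printed 5′ to 3′ with the match in capitals.
Me1 promoter: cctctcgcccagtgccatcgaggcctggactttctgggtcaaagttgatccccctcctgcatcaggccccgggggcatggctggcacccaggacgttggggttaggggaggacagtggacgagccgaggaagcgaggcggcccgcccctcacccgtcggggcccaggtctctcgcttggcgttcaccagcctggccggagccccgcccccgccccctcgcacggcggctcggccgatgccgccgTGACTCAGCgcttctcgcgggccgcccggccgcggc
The match begins 6 bases before the start. The window of the second start site holds no match. The core was searched on both strands in windows of 250 bases before to 50 after each start, and 12.4% of 32851 windows held it. Of the 32 called genes, 25 had a window and 3 (Me1, Cast and Rpap2) had a match in any of their windows. The 12.4% counts single windows and the 3 counts genes, which can have several windows, so these shares are not directly comparable. The matches describe letters and not binding. Of 19 measured genes of an NRF2 target list, which was added after Me1 was seen, Me1 was the only one called. The median difference of the list was 0.21, beside -0.02 over all genes, and 0.0 without GFP-negative replicate 2. Positive differences were found for 13 of the 19, beside 8804 of all 19937 genes. Nqo1, a standard target, was the lowest of the list at -0.86 (95% interval through 0, adjusted p = 0.540 by limma). A role of NRF2 was not tested.

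Genes of lysosomes, membranes and secretion made up much of the remainder. Serpinb11 had the smallest adjusted p of all genes (0.00261): it read 3.15, 3.28 and 3.49 in GFP-negative mutant cells, near the array medians, against 5.01, 4.30 and 5.06 in control cells. Its difference of -1.49 stayed between -1.73 and -1.35 when 1 array was left out, and the groups did not overlap. Arsb read 5.89, 5.40 and 5.37 in GFP-negative mutant cells and 6.61, 7.57 and 7.30 in control cells, a difference of -1.61 (adjusted p = 0.0280, and up to 0.0706 without GFP-negative replicate 2). This value rests on the brightest probe set: with the mean over all probe sets of the gene it was -0.89 and not called (adjusted p = 0.242). Snx5, a sorting nexin of endosomes, read 7.44, 7.23 and 7.72 in GFP-negative mutant cells and 8.43, 8.53 and 8.42 in control cells. The controls lay close together, and the difference of -1.0 (adjusted p = 0.0133) kept its call without any 1 array. Ism1, the secreted protein isthmin, read 8.02, 7.85 and 8.49 in GFP-negative mutant cells and 6.71, 7.12 and 6.76 in control cells, a rise of 1.26 ± 0.22 (adjusted p = 0.0322). Psd2, an exchange factor for ARF6, was 0.76 ± 0.11 higher (adjusted p = 0.0201), and Osbpl11, an oxysterol-binding protein relative, was 0.84 ± 0.15 higher. The remaining called genes were Usp4 and Trim9 (ubiquitin pathway, 0.83 and 0.55 higher), and Sncg (γ-synuclein, -1.35), Xkr4 (-1.26), Pyy (the gut hormone peptide YY, -0.86), E130304I02Rik (-0.68) and S100b (a calcium-binding protein, -0.58). S100b, at 3.11, 3.13 and 3.47 in GFP-negative mutant cells against 3.71, 3.74 and 3.98 in control cells, lay near the array medians in both groups, as Ptprc did. Trim9, at 4.03, 3.68 and 3.76 in GFP-negative mutant cells against 3.36, 3.18 and 3.26 in control cells, was also near them. Whether either probe set was above background is unknown, since the table gives no detection calls. Churc1 (-1.21, adjusted p = 0.0540) and Ap3m1 (-1.09, adjusted p = 0.0555) had among the smallest p-values but missed the threshold.

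The levels of the called genes in GFP-positive basal cells fell into different patterns. These values stand beside the comparison with controls and are not independent of it, since the comparisons share arrays. For Thy1 the GFP-positive arrays read 3.68, 3.72 and 4.10, near the control levels, and GFP-positive minus GFP-negative cells gave -1.35 (adjusted p = 0.00213). For Dchs1 they read 3.58, 3.55 and 3.69, below the GFP-negative arrays by 1.60 (adjusted p = 2.19e-05). Gtf2ird1, Tesk2, Ndufs7, Rpap2, Osbpl11 and Trim9 were likewise called lower in GFP-positive than in GFP-negative cells, with differences from -1.09 (Ndufs7) to -0.53 (Trim9). The mean level of these genes was highest in the GFP-negative fraction, which follows from their being chosen by calls in both comparisons. Krt15 and Psd2 were higher still in GFP-positive cells. There Krt15 read 9.71, 10.08 and 10.28, 1.23 above GFP-negative cells (adjusted p = 0.0212 by limma). Psd2 read 6.04, 6.28 and 6.57 in GFP-positive cells, 1.38 above GFP-negative cells (adjusted p = 1.73e-06). Xkr4 was lower still, at 3.58, 3.65 and 3.56 in GFP-positive cells, 0.75 below GFP-negative cells (difference -0.75, adjusted p = 0.0478). For Me1 (6.90, 6.83 and 6.66), Ism1 (8.18, 8.31 and 8.09) and Serpinb11 (3.20, 3.35 and 3.08), the difference between GFP-positive and GFP-negative cells was between -0.09 and 0.15 and was not called.

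None of the 20 genes that stood out most in GFP-positive basal cells was called in the GFP-negative fraction. Only 0.161% of all genes were called, so the absence of calls among 20 genes says little about them. The 95% interval excluded 0 for 5 of the 20 (Saa1, Saa2, Csn1s1, Glycam1 and Itprid1), beside 9.69% of all genes with an unadjusted p under 0.05 by limma. The GFP-negative minus control difference was above 1 in size for 7 of the 20, beside 255 of all 19937 genes. The 10 highest and 10 lowest called genes of GFP-positive minus control cells are described, and the control arrays that chose them also enter the values here. Il24, a cytokine of the IL-20 family, read 8.60, 9.39 and 7.96 in GFP-positive cells, 3.38, 3.61 and 3.34 in GFP-negative cells and 3.01, 3.08 and 3.32 in control cells. Fndc1, a fibronectin type III domain gene, read 9.22, 8.48 and 8.03 in GFP-positive cells, 3.50, 3.77 and 3.82 in GFP-negative cells and 3.61, 3.45 and 3.68 in control cells. The GFP-negative minus control difference of Fndc1 was 0.12 (95% interval -0.33 to 0.57), so a difference near its 4.88 between GFP-positive and GFP-negative cells lies outside the interval. Sparcl1, S100a8 and Scrg1 had differences of 0.16, 0.17 and 0.56 between GFP-negative and control cells, none called. Car12, a carbonic anhydrase, read 3.50, 5.63 and 3.63 in GFP-negative cells against 3.83, 3.76 and 3.85 in control cells, high in replicate 2 alone; its difference was 0.44 with replicate 2 and -0.25 without it. Among genes lower in GFP-positive cells was Lgr5, a Wnt-amplifying receptor and stem cell marker. It read 4.60, 4.05 and 5.55 in GFP-positive cells, 8.74, 8.40 and 9.16 in GFP-negative cells and 8.35, 8.22 and 8.61 in control cells. Grik3, a glutamate receptor subunit, Scn7a, a sodium channel, and Map1b, a microtubule-associated protein, had GFP-negative minus control differences of 0.12, -0.34 and 0.36. Cacna2d1 (0.53), Serping1 (-0.38), Man1a (-0.49), Itprid1 (-1.0, 95% interval -1.68 to -0.32) and Tfb2m (-1.09, 95% interval -2.75 to 0.57) completed the lower set. Over the 20 genes the adjusted p of GFP-negative minus control cells ran from 0.190 to 0.969. Of the genes lowest in GFP-positive relative to GFP-negative cells, Pappa, a protease that frees insulin-like growth factor, read 3.25, 3.46 and 3.57 in GFP-positive cells, 6.82, 6.03 and 5.83 in GFP-negative cells and 5.90, 5.72 and 6.05 in control cells. Ankrd1, a YAP target, read 3.77, 3.99 and 3.66 in GFP-positive cells, 7.43, 6.41 and 6.02 in GFP-negative cells and 6.98, 6.65 and 6.41 in control cells. For both genes the GFP-negative arrays overlapped the control arrays. Prelp, Vsnl1 and Tnfsf9 had GFP-negative minus control differences of 0.26, 0.47 and 0.74, none called.

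Of the acute-phase genes Saa1 and Saa2, which encode serum amyloid A proteins, GFP-negative levels lay partly between those of the other groups. Saa1 read 9.78, 8.88 and 9.13 in GFP-positive cells, 5.57, 2.87 and 4.31 in GFP-negative cells and 2.97, 2.92 and 2.79 in control cells. Replicate 2 of the GFP-negative cells was at the control level and the other replicates were above it, and the difference of 1.35 (95% interval 0.35 to 2.35) was not called (adjusted p = 0.331). Saa2, whose sequence is close to that of Saa1, read 9.35, 8.23 and 8.25 in GFP-positive cells, 4.06, 4.08 and 5.84 in GFP-negative cells and 3.60, 3.26 and 3.55 in control cells. All 3 GFP-negative arrays were above the controls, and the difference of 1.19 was not called either (adjusted p = 0.292). Probes of such closely related genes can cross-hybridise, so the values of Saa1 and Saa2 may not be separate. The acute-phase list as a whole had 0 of 14 genes called (2 higher and 2 lower at an unadjusted p under 0.05, by limma) and a median of 0.01, with Saa3 at 0.19, Lcn2 at 0.01 and Hp at -0.26. The casein genes varied within groups: Csn1s1 read 9.35, 6.55 and 8.49 in GFP-negative cells against 7.06, 5.63 and 4.02 in control cells (difference 2.56, 95% interval 0.98 to 4.14, adjusted p = 0.230), and Csn2 had a difference of 1.80 (95% interval -0.53 to 4.13). Glycam1, a milk mucin, read 3.57, 3.08 and 3.11 in GFP-negative cells against 10.16, 3.23 and 9.21 in control cells, so its fitted difference of -4.28 (adjusted p = 0.190) rests on control replicates 1 and 3.

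**Figure D3:**
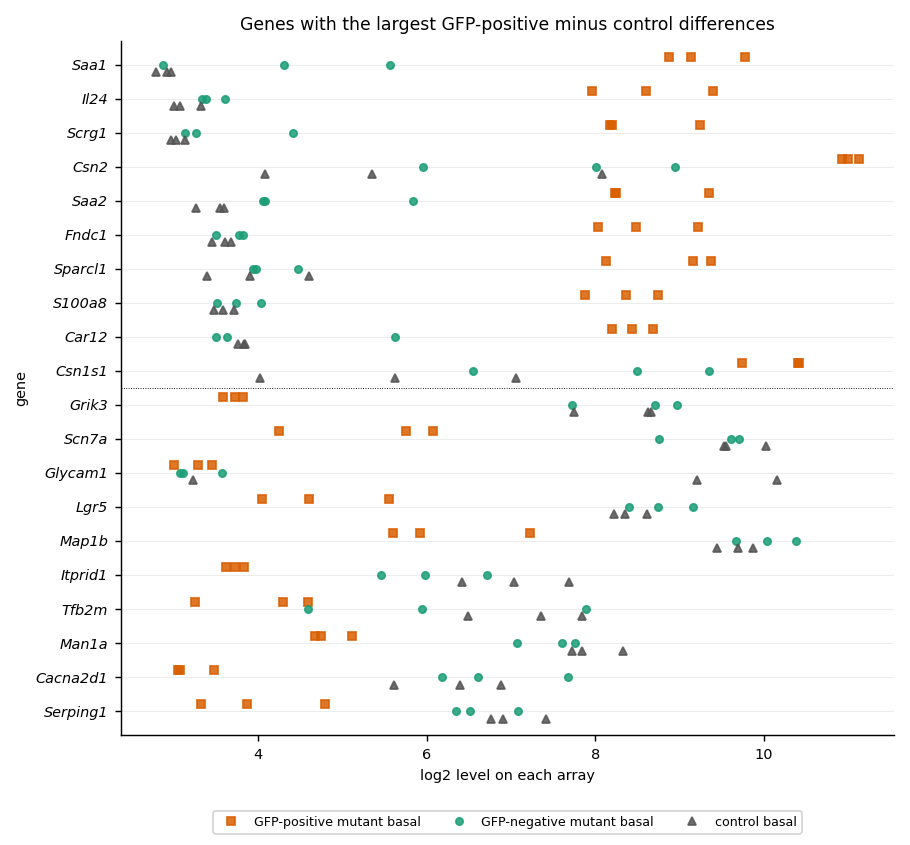
Log2 level on each array (horizontal axis) of the 10 called genes with the highest (above the dotted line) and the 10 with the lowest (below it) GFP-positive minus control differences, in GFP-positive mutant (squares), GFP-negative mutant (circles) and control basal cells (triangles). For Il24, Fndc1, Grik3 and Lgr5 the GFP-negative points lie with the controls, while Saa1, Saa2, Csn2 and Csn1s1 have GFP-negative points between the other groups.

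Pathway and cell type lists gave few calls. Of 41 lists with 512 different measured genes, 37 held no called gene. Over all lists 3 genes were called (0.586%, beside 0.161% of all genes), and 70 (13.67%) had an unadjusted p under 0.05, beside 9.69% of all genes. These shares include the epidermal keratinocyte and NRF2 lists, which were added after values of these data were seen, so no excess is read from them. At an unadjusted p under 0.05 by limma the epidermal list had 6 higher and 3 lower of 27, and the NRF2 list 1 higher and 2 lower of 19. Over all genes 3.63% were higher and 6.06% lower at an unadjusted p under 0.05. The list medians were small: without 1 of the 6 arrays, 26 of the 41 changed sign, and the largest move was 0.43. The Notch list had 1 of 16 members called higher (Hes1), with Notch1 at 0.66 (adjusted p = 0.677) and Jag1 at 0.60 (adjusted p = 0.568), and its median difference was 0.06, beside -0.02 over all genes. The fatty acid synthesis list had 1 of 14 called higher (Me1) and a median of 0.02; Fads2, a desaturase, was at 1.0 (adjusted p = 0.204), and Fasn at 0.22. The Schwann cell list had 1 of 6 called lower (S100b, near the array medians in both groups) and a median of 0.07. None of 16 PI3K pathway genes and none of 18 FOXO-linked genes were called, with medians of 0.03 and 0.04; the largest FOXO-linked differences were Irs1, the insulin receptor substrate, at -1.02 (adjusted p = 0.176) and Bcl6 at 0.91 (adjusted p = 0.262). The interval of Irs1 was -1.56 to -0.48, and it read 6.70, 6.52 and 6.34 in GFP-negative cells against 7.35, 7.74 and 7.51 in control cells.

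The basal, contractile, luminal, stress, cell cycle, interferon, NF-kB and chemokine lists gave 0 calls by limma. At most 4 members of each had an unadjusted p under 0.05. The 17 basal myoepithelial genes had a median difference of -0.04, and the 14 contractile genes -0.11, with the oxytocin receptor gene Oxtr lowest at -0.72 (adjusted p = 0.507). The 13 luminal genes had a median of 0.13, which was -0.14 without control replicate 3 and 0.37 without control replicate 2. Ehf, an epithelial ETS factor, was at 1.76 (adjusted p = 0.330), with 4.91, 8.36 and 5.26 in GFP-negative cells against 5.05, 3.89 and 4.31 in control cells, so that it rested on replicate 2 (0.67 without it). The 20 immediate early and stress genes had a median of -0.18, and 5 of the 20 had all GFP-negative arrays below all controls, beside 8.77% of all genes. Among them Fos read 10.30, 10.07 and 10.33 in GFP-negative cells against 10.37, 10.75 and 10.49 in control cells, and Hspa1a, an inducible heat shock protein, 8.24, 8.29 and 8.03 in GFP-negative cells against 8.62, 8.75 and 8.39 in control cells. Genes of this list are known to respond to tissue dissociation. The 22 cell cycle genes had a median of -0.15, with 4 of 22 separated downwards and 0 called (4 lower at an unadjusted p under 0.05). The interferon (18 genes), NF-kB (15 genes) and chemokine (14 genes) lists had medians of -0.01, -0.09 and 0.00, and Cxcl2 had the largest difference among these at -1.39 (adjusted p = 0.555).

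Markers of cells outside the gate gave no call other than S100b. The immune list averaged 3.35, 3.36 and 3.41 in GFP-negative cells against 3.44, 3.31 and 3.48 in control cells, with 0 of 11 genes called and 0 at an unadjusted p under 0.05 by limma. The fibroblast list averaged 4.26, 4.21 and 4.16 in GFP-negative cells against 4.03, 4.14 and 4.28 in control cells. The endothelial list averaged 3.64, 3.53 and 3.74 in GFP-negative cells against 3.72, 3.60 and 4.14 in control cells; control replicate 3 was highest, as also for Pecam1 (4.48). The adipocyte list was 4.10 in GFP-negative replicate 2 and 3.67 to 3.82 on the other 5 arrays.

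**Figure D4:**
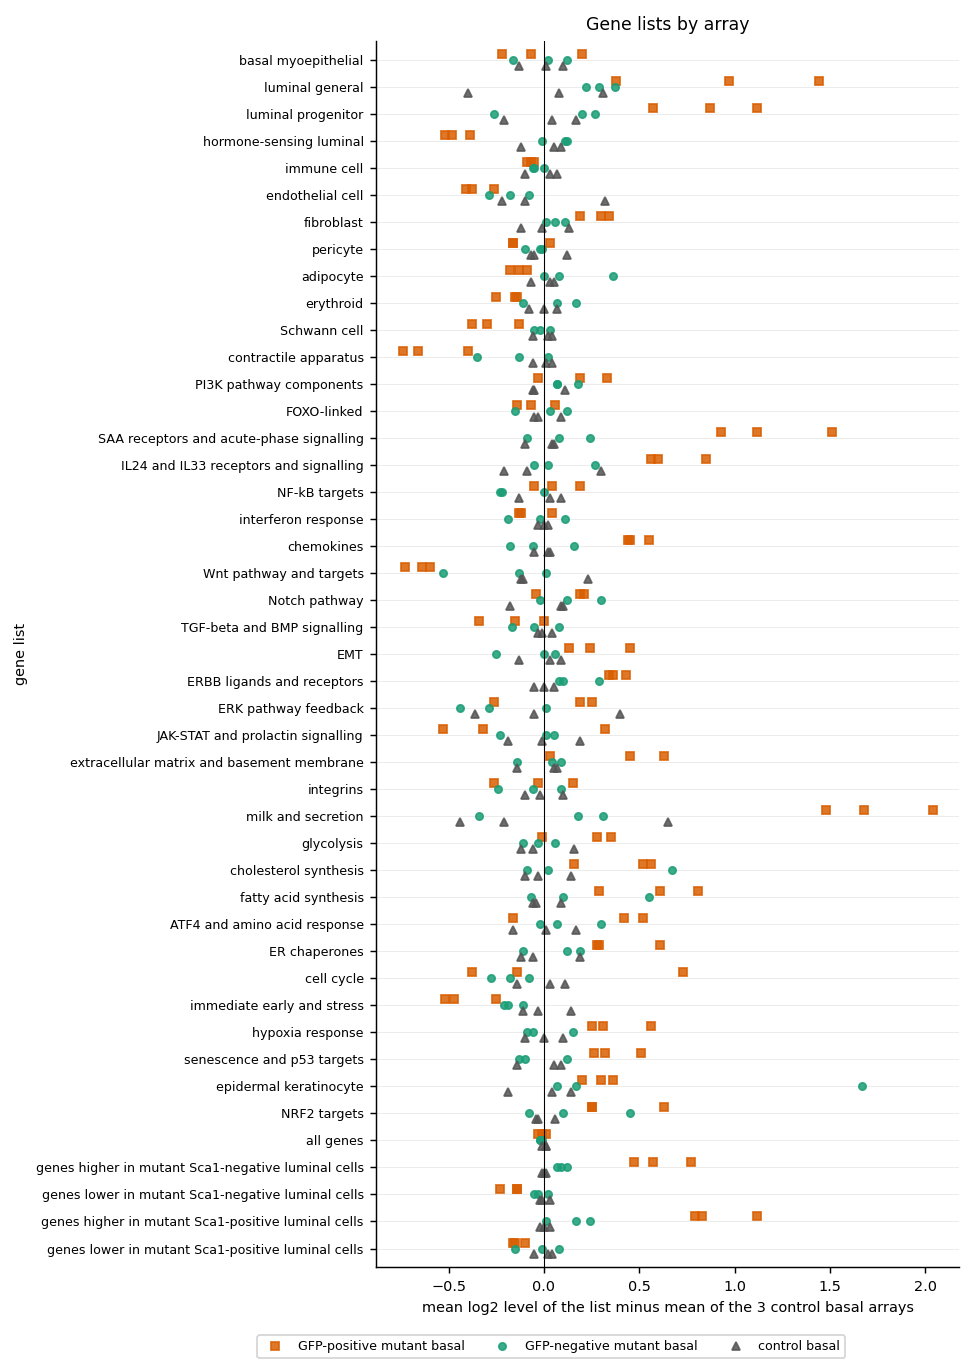
Mean log2 level of each gene list on each array minus the mean of the 3 control basal arrays, for GFP-positive mutant (squares), GFP-negative mutant (circles) and control basal cells (triangles); the last 4 rows are genes called in mutant luminal cells. The list of sort markers is not drawn, and a row for all genes is added. Counted over all 41 lists, the GFP-negative arrays overlap the controls for 40, and all 3 lie above all controls for the ERBB list. Over the same 41 lists replicate 2 lies outside the control range in 28, 13 above it and 15 below it, the sort markers being among those below.

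Genes that responded to the transgene in luminal cells were read in the GFP-negative basal cells as well. Mutant minus control called 378 genes (1.9%) in the Sca1-negative luminal gate and 45 (0.226%) in the Sca1-positive one, on arrays that are not among the 6 compared here, although mice may be shared. The 242 genes higher in mutant Sca1-negative luminal cells averaged 5.49, 5.44 and 5.46 in GFP-negative basal cells, against 5.38, 5.37 and 5.36 in control basal cells. All 3 arrays were above the controls by a small amount, the median difference was 0.07 beside -0.02 for all genes, and 0 of the 242 were called; at an unadjusted p under 0.05 by limma 22 were higher (9.09%, beside 3.63% of all genes) and 10 lower (4.13%, beside 6.06%). The 136 genes lower in those luminal cells had a median of -0.04, with 1 called lower (E130304I02Rik). The 36 genes higher in mutant Sca1-positive luminal cells averaged 5.88, 5.72 and 5.95 in GFP-negative basal cells, against 5.69, 5.71 and 5.74 in control basal cells, with a median difference of 0.14 (0.05 without control replicate 1). By limma 0 were called, with 4 higher (11.1%) and 2 lower (5.56%) at an unadjusted p under 0.05. In GFP-positive basal cells the same list of 242 averaged 6.14, 5.84 and 5.94.

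The GFP-negative arrays differed among themselves for more genes than the controls did. The median SD over 3 arrays was 0.154 in GFP-negative cells and 0.155 in control cells, but 368 genes had an SD above 1 in GFP-negative cells, against 243 in control cells. GFP-negative replicate 2 exceeded the 5 other arrays of both groups by more than 1 log2 unit for 170 genes, against 68 and 85 for GFP-negative replicates 1 and 3 and 63 to 71 for the controls. Of the 10 genes with the largest SD, 6 were high in replicate 2 alone. Adh1, an alcohol dehydrogenase gene, read 3.63, 9.14 and 3.56 in GFP-negative cells, against 3.70, 3.57 and 3.54 in control cells. Krtdap, a gene of differentiating keratinocytes, read 3.07, 8.21 and 3.08 in GFP-negative cells, against 3.17, 3.70 and 3.04 in control cells. Without replicate 2 the differences of Adh1 and Krtdap were -0.01 and -0.23. The others were Mir708 (9.23 in replicate 2), Mgst2 (9.15), Dcaf4 (9.77) and Calml3 (8.40), a calmodulin-like gene of stratified epithelium. Cldn1, a tight junction claudin, followed another pattern, with 5.42, 9.21 and 11.68 in GFP-negative cells against 5.55, 5.24 and 4.89 in control cells, and its difference of 3.55 was not called (adjusted p = 0.201). Zc3h3 (3.63, 8.83 and 8.88 in GFP-negative cells), Mir99a (3.24, 6.72 and 9.14) and Nynrin (8.45, 6.13 and 3.15) also varied, without following replicate 2.

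A list of 30 epidermal keratinocyte genes was added after these values were seen, and 27 were measured. Its mean was 4.30, 5.90 and 4.40 in GFP-negative cells, against 4.37, 4.27 and 4.04 in control cells. Replicate 2 was the highest of the 6 arrays for 18 of the 27 genes, and more than 1 log2 unit above the 5 others for 16. Dsc3, a desmosomal cadherin, read 3.83, 7.92 and 5.46 in GFP-negative cells against 3.91, 3.28 and 3.28 in control cells, and Ly6d read 5.36, 8.86 and 5.44 in GFP-negative cells against 5.30, 4.41 and 4.82 in control cells. The keratins of differentiating epidermis did not follow: Krt1 read 3.12, 3.24 and 3.17 in GFP-negative cells against 3.42, 3.39 and 3.42 in control cells. Krt10 read 4.18, 4.24 and 4.41 in GFP-negative cells against 3.73, 4.15 and 3.92 in control cells, and Lor, the loricrin gene, read 3.41, 3.88 and 3.44 in GFP-negative cells against 4.25, 3.81 and 3.34 in control cells. For these last genes replicate 2 lay within 0.5 log2 units of the other GFP-negative arrays. The part of other cells in the values of replicate 2 was not tested. The median difference of the list was 0.47 with all arrays and 0.04 without replicate 2. Cholesterol synthesis genes averaged 4.90, 5.66 and 5.01 in GFP-negative cells against 4.96, 5.13 and 4.89 in control cells, and Scd1, a fatty acid desaturase, read 6.18, 10.96 and 7.44 in GFP-negative cells against 6.70, 8.05 and 7.77 in control cells. Without replicate 2 the median of the cholesterol list was -0.18, beside 0.08 with it, and the difference of Scd1 was -0.69, beside 0.69 with it. Among the called genes, Me1, Thy1 and Cast were also highest in replicate 2. All 3 remained called without it by limma, with differences of 1.49, 1.28 and 1.12 (adjusted p = 0.0258, 0.00513 and 0.00874). Afdn, Osbpl11 and Psd2 were highest in replicate 2 too, at 7.19, 6.47 and 5.03. Without it Psd2 remained called (adjusted p = 0.0395 by limma), while Afdn and Osbpl11 lost their call (adjusted p = 0.0652 and 0.12).

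**Figure D5:**
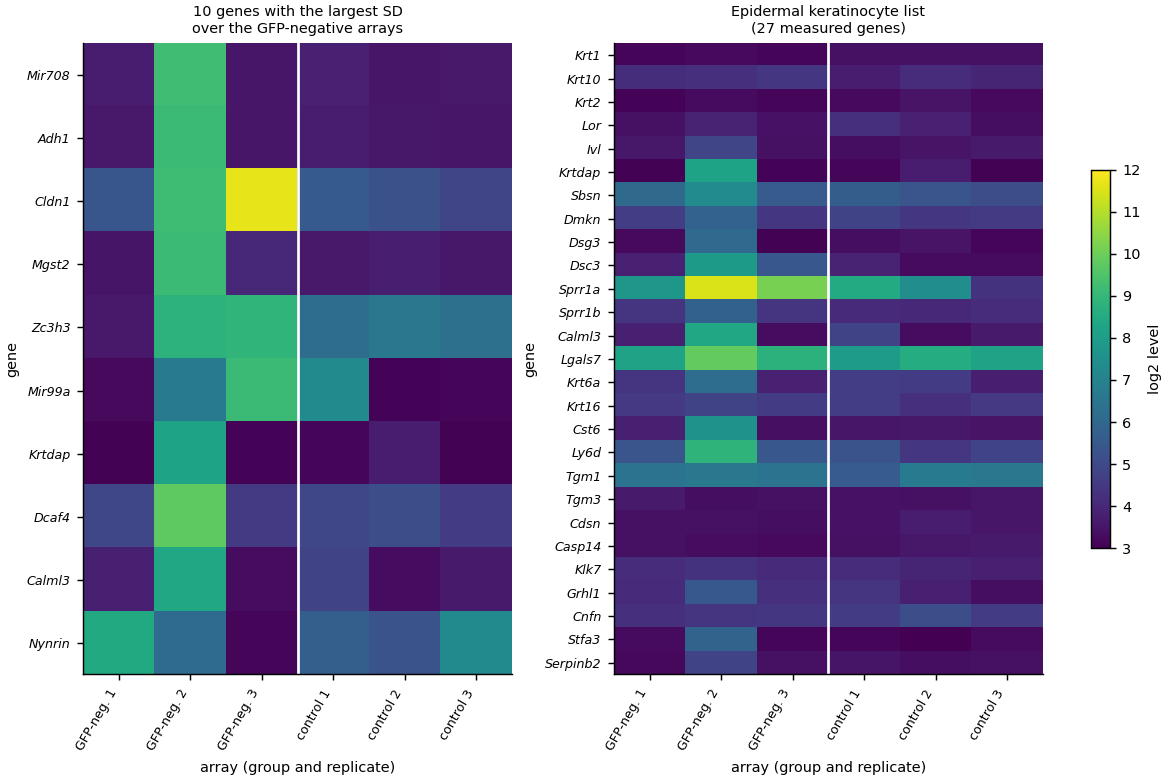
Log2 level (colour scale) on the 3 GFP-negative mutant and 3 control basal arrays of the 10 genes with the largest SD over the GFP-negative arrays (left) and of the 27 measured epidermal keratinocyte genes (right). The column of GFP-negative replicate 2 is high for Adh1, Mir708, Krtdap, Calml3, Dsc3 and Ly6d, and not for Krt1, Krt2 and Casp14.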

How the data were processed

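Per the labels' protocols, RNA was amplified with a whole-transcriptome kit and hybridised to Affymetrix gene arrays. The deposited table holds 1 log2 value per probe set and array (1.98 to 13.07, none missing, which is how the unit was recognised). Per the submitters' processing notes the affy package was used, with no version. Background correction, normalization and build are not given in the sources used here. Of 34760 probe sets, 21640 had a single gene symbol in the platform table, 1321 several and 11799 none; only the first were tested, with the brightest probe set for the 954 genes that had several, leaving 19937 genes. Symbols were checked against RefSeq (GRCm38.p6), which held 21553 of these probe sets.

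Group means of 7 groups over 20 arrays were fitted in R 4.3.3 by limma 3.58.1 with its eBayes step, without a block. Calls were made at an adjusted p (Benjamini-Hochberg) below 0.05; intervals are 95% intervals of that fit. The number of arrays limits the precision. The steps were tested on simulated data. Fractions of a genotype can come from the same pools, which the fit treats as independent.

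The genes named are the 15 higher and 15 lower genes with the smallest p (2 of these, Churc1 and Ap3m1, were not called), all called genes, sort markers, list members that were called or differed most, the extremes of the GFP-positive comparisons and the 10 genes with the largest SD over GFP-negative arrays. Further genes were named after their values were seen. The comparison, the members and the lists were chosen with earlier results of these data known. Alternatives were subsets of arrays, array weights, quantile normalization, median centring, an intensity filter, probe set means, another variance prior, replicate blocks and leaving out each array.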

Additional observations from a re-analysis of the deposited data

Results flagged for a closer look

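Of 13120 probe sets without a single gene symbol, which entered no comparison above, limma called 3 between GFP-negative mutant and control basal cells (1 higher and 2 lower). They are given here as a signal outside the genes tested, and they are not named. Groups of 3 arrays were not tested for single outlying arrays.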

How the results depend on the processing

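The number of called genes between GFP-negative mutant and control basal cells was 32. It was 0 with only the 6 compared arrays, 0 with the 9 basal arrays and 10 with array weights. Leaving out 1 array gave 25 to 63. It was 24 to 39 with quantile normalization, median centring, the intensity filter, probe set means, another prior and the replicate blocks; the fixed replicate block gave 29 (27 of the 32 among them) and the random one 32. Median centring changed the split of calls to 21 higher and 9 lower, beside 19 and 13. GFP-positive minus GFP-negative calls numbered 648, and 134 and 198 with 6 and 9 arrays; GFP-positive minus control calls numbered 843, and 276 and 286. The other alternatives kept these counts within 1.5 times. Deviations of same-numbered GFP-negative and control arrays correlated at 0.000, 0.008 and -0.006 and those of GFP-positive and GFP-negative arrays at 0.041, 0.029 and 0.031, so the numbers were not taken to pair samples; only in the second pair of groups did every array correlate best with its own number. Over the named genes of the 3 comparisons, 920 repeats kept the call and 227 lost it. None turned the sign, but in many repeats it could not turn. Fits of 6 or 9 arrays leave a difference unchanged by construction. Where the arrays of both groups do not overlap, leaving out 1 array cannot turn the sign either. The cause of the loss with fewer arrays was not tested. With 3 pools a group, a gene that was not called may still differ by as much as the bounds of its own interval.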

Other observations

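Among genes of adhesion, matrix and Wnt signalling, some that were not called had arrays that did not overlap between the groups. Such a separation was common: it was found upwards for 4.9% of all genes and downwards for 8.77%. It was found for 2 higher and 2 lower of 13 integrin genes. For the matrix list it was found for 0 higher and 2 lower of 19 genes, and for the Wnt list for 0 higher and 2 lower of 17. The integrin list had 0 of 13 called by limma (2 higher and 2 lower at an unadjusted p under 0.05) and a median of -0.03, and the matrix list had 0 of 19 called (0 higher and 1 lower unadjusted) and a median of 0.06. Itga1, the α1 integrin that binds collagen, read 4.20, 3.60 and 4.11 in GFP-negative mutant cells, against 6.14, 4.58 and 4.68 in control cells (difference -1.16, 95% interval -1.79 to -0.54, adjusted p = 0.179 by limma). Lama1, a laminin chain, read 6.0, 5.45 and 6.23 in GFP-negative mutant cells, against 6.55, 7.21 and 7.10 in control cells (-1.06, adjusted p = 0.206). Cdh1, which encodes E-cadherin, read 8.76, 9.43 and 8.54 in GFP-negative mutant cells, against 8.04, 8.30 and 8.34 in control cells (0.69, adjusted p = 0.206). Itgb4 and Itgb6, the β4 and β6 integrins, were at 0.54 and 0.45 (adjusted p = 0.328 and 0.324). In each of these 5 genes the groups did not overlap. Of 17 measured Wnt genes 0 were called by limma, with 6 lower (35.3%, beside 6.06% of all genes) and 1 higher (5.88%, beside 3.63%) at an unadjusted p under 0.05. The median was -0.10, and ran from -0.26 (without GFP-negative replicate 1) to -0.08 (without control replicate 2) when 1 array was left out. Wif1, a secreted Wnt inhibitor, read 6.20, 4.56 and 6.35 in GFP-negative mutant cells, against 6.81, 6.89 and 6.65 in control cells (-1.08, adjusted p = 0.264 by limma). Much of this difference rests on GFP-negative replicate 2, which was lowest. Axin2, a Wnt target, read 5.12, 4.65 and 5.23 in GFP-negative mutant cells, against 4.45, 4.22 and 4.73 in control cells (0.53, adjusted p = 0.228).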
